A study of Mus musculus with 10 samples.

Results

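The genes described here are 41 lysosome genes out of the 47729 genes in the count table. They were taken from a list of enzymes, membrane proteins and proton pump subunits of the lysosome, and each symbol was matched to its Ensembl row, with all 41 found. The RNA came from the RPE, the retinal pigment epithelium, a pigmented sheet of cells behind the photoreceptors, and was sequenced in 5 wild-type mice of the CD1 strain aged 40 postnatal days. In each mouse the GFP control eye had received AAV Best1 GFP alone, and the Nrf2 eye had received AAV Best1 Nrf2 together with AAV Best1 GFP, so every eye carried GFP and the Nrf2 eyes carried an additional vector. AAV (adeno-associated virus) delivers genes to cells, and the human Best1 promoter is active in RPE cells. By the study's methods, the Nrf2 eyes received a higher total dose of virus than the control eyes. The Nrf2 vector also had another virus shell (capsid) than the GFP vector. Dose, capsid and Nrf2 cannot be told apart in this design. NRF2 switches on genes that protect against oxidative stress, and its human coding sequence was used here. The 2 eyes of a mouse were compared with each other, which gave 5 pairs. The amplified RNA was that released from eyecups without retina into a preserving solution, so that RNA of other cells of the eyecup could be present.

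The lysosome is the acidic compartment in which cells break down proteins, sugar chains and lipids. Its lumen holds acid hydrolases, a coat of glycoproteins such as LAMP1 and LAMP2 lines its membrane, and a proton pump, the vacuolar ATPase, keeps it acidic. The pump has a membrane sector, V0, which carries the protons, and a cytosolic sector, V1, which splits ATP. RPE cells engulf the shed tips of photoreceptors every day and digest them in lysosomes, with cathepsin D as a main protease of that task. Macrophages and microglia are also rich in lysosomes, and some cathepsins, cathepsin S among them, are made mostly by such immune cells. For this reason the genes were split by general knowledge of where they are expressed into 35 widely expressed members and 6 immune-leaning members (Ctss, Ctsc, Ctsh, Ctsz, Ctsk and Atp6v0d2).

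Many lysosome genes carry in their promoters a motif called the CLEAR element, which is bound by the transcription factors TFEB and TFE3, and NRF2 binds a different motif, the antioxidant response element (ARE). Both were looked for, on both strands, in the 300 bases around each RefSeq start site (250 before and 50 after, GRCm38.p6), which were given for 34 of the 41 members. The CLEAR core searched was TCACGTGA, which contains the general E-box CACGTG, and the ARE core searched was TGACNNNGC. The CLEAR core was found in 7 of 34 members (20.6%) against 1.12% of all 27025 genes with a window. The sites of those 7 members are shown because they mark which lysosome genes share this motif, as 30 bases of the gene's own strand, 5′ to 3′, with the motif in capitals.
Ctsd, chr7:142387908-142387937 (−): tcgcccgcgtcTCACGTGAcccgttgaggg
Ctsa, chr2:164833749-164833778 (+): tgagcaaactgTCACGTGAtgcagatgctc
Ctsa, chr2:164833766-164833795 (+): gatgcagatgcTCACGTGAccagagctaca
Mcoln1, chr8:3500462-3500491 (+): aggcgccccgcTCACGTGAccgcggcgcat
Cln3, chr7:126583340-126583369 (−): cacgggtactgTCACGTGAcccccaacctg
Gla, chrX:134601215-134601244 (−): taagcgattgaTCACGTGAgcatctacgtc
Gla, chrX:134601182-134601211 (−): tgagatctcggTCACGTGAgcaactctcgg
Atp6v0d1, chr8:105566050-105566079 (−): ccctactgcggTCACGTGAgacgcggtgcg
Atp6v1a, chr16:44139373-44139402 (−): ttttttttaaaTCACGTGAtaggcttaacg

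Of these 7 genes, Ctsd and Ctsa were higher in Nrf2 eyes by the test described below and the other 5 (Mcoln1, Cln3, Gla, Atp6v0d1 and Atp6v1a) did not pass it. Among the members with a window, the CLEAR core was thus present in 2 of the 8 that were called higher and in 5 of the 26 that were not. The shorter E-box stood in 14 of 34 members (41.2%) against 8.09% of all genes, and in 3 of the 8 called higher, which were Ctsd, Ctsa and Lgmn.

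The ARE core was found in 10 of 34 members (29.4%) against 13.99% of all genes, in 2 of the 8 called higher (Ctsd and Ctsz) and in 8 of the 26 not called. Its sites in the called members are shown for Ctsd, the member with the most RNA, and Ctsz, with capitals again marking the motif. Both cores stood in the same window in Ctsd and also in Cln3 and Atp6v1a, which were not called.
Ctsd, chr7:142387871-142387899 (−): gcgggtcagcTGACTCCGCgggactgcgg
Ctsd, chr7:142387856-142387884 (−): ccgcgggactGCGGCGTCAtcctgcctat
Ctsz, chr2:174439153-174439181 (−): atggctggtgGCACTGTCAggtctggggt
In the second Ctsd site and in the Ctsz site the motif lies on the opposite strand. These are matches of letters in a short window and say nothing of binding.

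Library totals ran from 12298404 to 27310638 counts, and CPM below are counts scaled to that total. A count of 0 allows up to 0.110 to 0.244 CPM in these libraries, for counting error only. The delivered gene was checked through mouse Nfe2l2, which rose from 88.7 ± 12.7 to 353 ± 53.6 CPM (mean ± SD, n = 5 in each group), a log2 difference of 1.97 (SE 0.11, adjusted p = 0.000299), and human reads from the vector may be among these counts. Markers of the RPE were present in every library, at 23632 to 48787 CPM summed over 12 genes in control eyes and 12409 to 31854 CPM in Nrf2 eyes, lower in 5 of 5 mice, with 7 of the 12 called lower. Over all tested genes 2.73% were called lower. The other 5 markers (Tyr, Best1, Tyrp1, Ezr and Ttr) had log2 fold changes of 0.002 to 0.88, and none was called. Rod marker RNA ranged from 35.4 to 17121 CPM over 8 genes in control eyes and from 55.6 to 6545 CPM in Nrf2 eyes, and mouse 2 held the highest value of each group. Unless another fit is named, an adjusted p for a gene is from edgeR's quasi-likelihood test with the mouse as a block, with Benjamini-Hochberg adjustment over 16362 tested genes and a threshold of 0.05.

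Among the 41 lysosome genes, 9 were higher in Nrf2 eyes and 0 were lower. The 9 were the cathepsins Ctsd, Ctss, Ctsz, Ctsa and Ctsh, the protease Lgmn, the glycosidase Gusb, the lipase Lipa and the membrane protein Lamp2. They make up 21.95% of the members, beside 3.60% of all tested genes called higher and 2.73% called lower. The count was 4 with rod RNA as a covariate, 4 without mouse 4 and 5 without mouse 3. At an unadjusted p under 0.05 there were 16 members higher and 2 lower, beside 9.58% and 9.53% of all tested genes. DESeq2 called 14 higher and 1 lower (Smpd1), beside 5.42% and 3.83% of its genes. The median log2 fold change of the 40 tested members was 0.18, against -0.01 over all tested genes. Of the 40, 30 (75%) were positive, beside 48.7% of all tested genes. All Nrf2 eyes lay above all control eyes for 11 members, where this held for 3.87% of all tested genes, and no member showed the opposite order, which held for 2.41%. Atp6v0d2 was not tested because its counts were too low. In these bulk libraries more RNA per cell and more cells of a type that holds the RNA cannot be told apart.

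**Figure D1:**
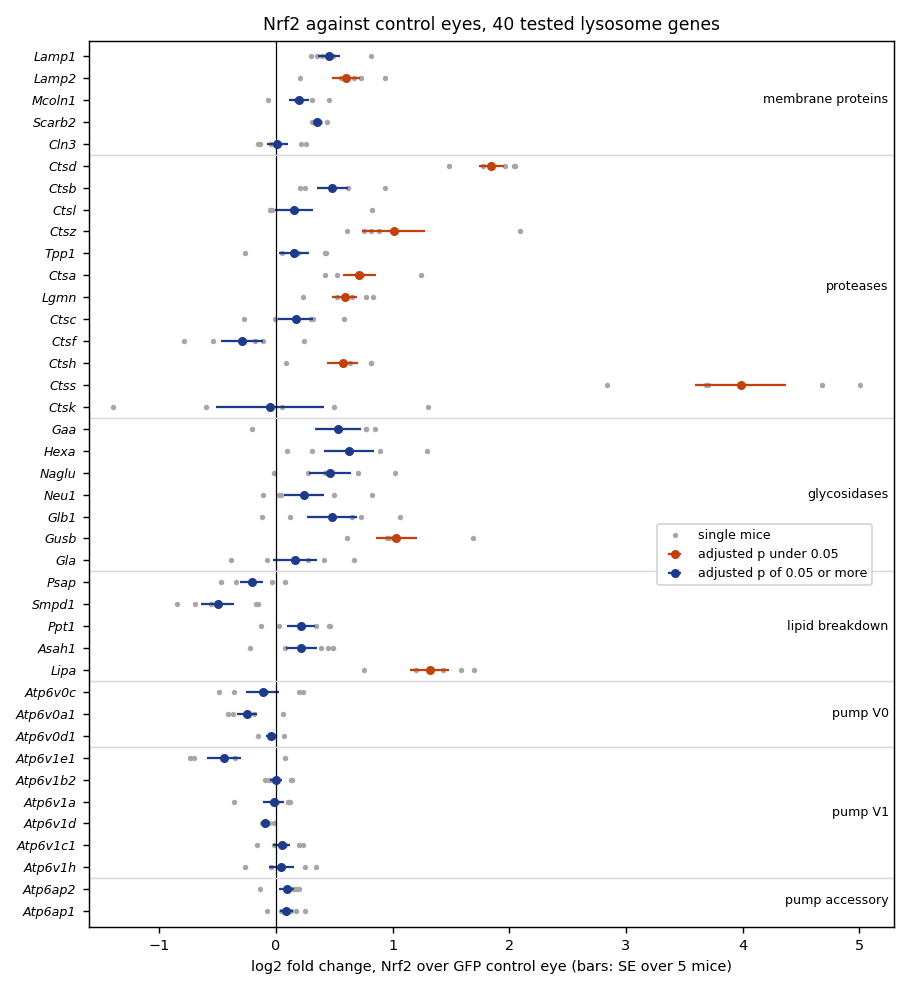
Log2 fold change of the Nrf2 over the GFP control eye for the 40 tested members, grouped by role, with the SE over 5 mice as bars and each mouse as a grey point. The 9 members with an adjusted p under 0.05 (orange) are all to the right of 0, and the 11 tested pump genes lie between -0.45 and 0.09.

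The calls fell on enzymes and on 1 membrane protein. Of the 24 hydrolases, which are 12 proteases, 7 glycosidases and 5 enzymes or activators of lipid breakdown, 8 were called higher, with a median log2 fold change of 0.47. Of the 5 membrane proteins 1 was called higher, with a median of 0.35. Of the 12 pump genes 11 were tested and 0 were called in either direction (median -0.02). At an unadjusted p under 0.05 there was 1 pump gene, on the lower side, where 19.1% of all tested genes had such a p in either direction, and DESeq2 called 0. These are counts side by side, and the difference between the roles was not tested.

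The RNA pool of the members was dominated by few genes. Summed over the 41 genes, members held 17687 ± 2160 CPM in control eyes and 30317 ± 3892 CPM in Nrf2 eyes, which is 1.77% and 3.03% of the library, with a higher sum in 5 of 5 mice. Ctsd alone made 87.6% of that net increase, in which falls of some members offset rises of others. Its share of the members' counts was 23.8% ± 2.61 in control eyes and 50.2% ± 3.79 in Nrf2 eyes. Without Ctsd the sum was 13450 ± 1380 CPM in control eyes and 15011 ± 1370 CPM in Nrf2 eyes, higher in 4 of 5 mice.

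To set levels of different genes side by side, counts were scaled to exon length and library total (RPKM). The length was that of all annotated exons of a gene merged, which can exceed that of the transcript expressed. The order of genes depends on this choice. On this scale the most abundant members in control eyes were Ctsd at 1802 ± 380 and Psap at 1391 ± 312, whose spreads overlap. Ctsb (217), Atp6v0c (215), Lamp1 (178) and the pump accessory genes Atp6ap2 (172) and Atp6ap1 (136) followed. The most abundant V1 subunit was Atp6v1e1 (116) and the most abundant glycosidase was Gaa (73.4). In Nrf2 eyes Ctsd reached 6511 ± 1259 RPKM while Psap stood at 1205, and their spreads no longer overlapped. The lowest tested members in control eyes on this scale were Cln3 (5.01), Gla (5.47) and Gusb (5.56). Without scaling to length, Ctsk (11.5 CPM) and Ctss (12.9 CPM) were lower than these. Atp6v0d2 was far below at 0.0469 RPKM.

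**Figure D2:**
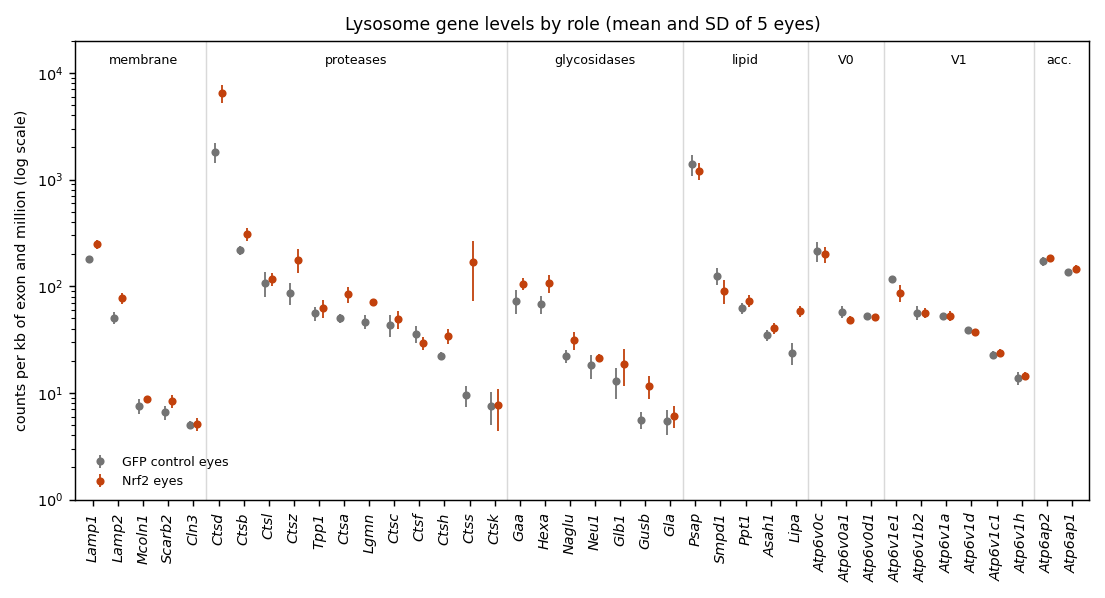
Level of 40 members in RPKM (log scale), mean and SD of 5 GFP control eyes (grey) and 5 Nrf2 eyes (orange), ordered within each role by level in control eyes. Ctsd moves from 1802 to 6511 and Ctss from 9.51 to 170, while most pump genes keep nearly the same position. Atp6v0d2, at 0.0469 in control eyes, is not drawn.

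Ctsd, the aspartic protease cathepsin D (ENSMUSG00000007891, chr7:142375911-142388038, minus strand), had the largest gain in RNA. In control eyes of mice 1 to 5 it stood at 4381, 3549, 4928, 5215 and 3112 CPM, and in the Nrf2 eyes at 14970, 13834, 20388, 14562 and 12780 CPM. The lowest Nrf2 eye was above the highest control eye by a wide margin, and the rise was seen in each mouse. Ctsd rose 3.59-fold, or 1.85 as log2 (SE 0.11, adjusted p = 0.00221), with single mice from 1.48 in mouse 4 to 2.05 in mouse 3. It was called under all 12 alternative settings, at log2 fold changes of 1.82 to 1.98. Of its 2351 exon bases 808 are shared in GENCODE M21 with Gm49369 on the same strand, which is not among the genes counted.

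Lipa, the acid lipase that frees cholesterol and fatty acids from engulfed lipid esters, was the next widely expressed gene by size of change. It stood at 220, 149, 163, 149 and 120 CPM in the control eyes of mice 1 to 5 and at 370, 342, 440, 447 and 388 CPM in their Nrf2 eyes. The groups did not overlap, and mouse 1, with the highest control value, had the smallest difference (0.75 on the log2 scale, against 1.20 to 1.70 in the others). The rise was 1.32 on the log2 scale (SE 0.17, adjusted p = 0.00233). Lipa was called under all 12 alternatives.

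Gusb, the beta-glucuronidase that trims sugar chains of proteoglycans, was a low-level member. Its control eyes held 30.1, 22.98, 20.8, 30.4 and 22.1 CPM and its Nrf2 eyes 46.1, 45.1, 40.2, 60.9 and 71.3 CPM, in mice 1 to 5. All Nrf2 eyes were above all control eyes, with mouse 5 the highest. Gusb rose by 1.03 in log2 units (SE 0.18, adjusted p = 0.00725), and all 12 alternatives called it.

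Ctsa, Lgmn and Lamp2 rose by less. Their fold changes kept their size under the alternatives, while the calls were lost with rod RNA as a covariate and in several fits on 4 mice. Ctsa is a carboxypeptidase that also shields the sialidase NEU1 and beta-galactosidase in a complex. It stood at 269, 223, 250, 232 and 211 CPM in control eyes and 361, 321, 417, 383 and 499 CPM in Nrf2 eyes. Ctsa rose by 0.72 in log2 units (SE 0.14, adjusted p = 0.0162), in 5 of 5 mice, and the call was lost without mouse 3 or 4, at log2 fold changes of 0.61 to 0.81 over the alternatives. Its partners in the complex were not called: Neu1 had a log2 fold change of 0.24 (adjusted p = 0.451) and Glb1 of 0.48 (adjusted p = 0.173). Ctsa shares 495 of its 4715 exon bases with Pltp on the opposite strand, and Pltp fell from 1207 to 412 CPM. The strand setting of the counting is not given in the sources used here.

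Lgmn, the asparagine-specific protease legumain, which cuts cathepsins into their mature forms, stood at 93.6, 134, 106, 103 and 105 CPM in control eyes. In Nrf2 eyes it stood at 160, 158, 153, 161 and 188 CPM, each above every control eye. Lgmn rose by 0.59 in log2 units (SE 0.11, adjusted p = 0.0229). The call was lost without mouse 1, 3, 4 or 5, with adjusted p up to 0.0921 and log2 fold changes of 0.55 to 0.72.

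Lamp2, a glycoprotein of the lysosome membrane needed for fusion with autophagosomes, was the membrane protein that passed the test. Control eyes held 571, 443, 514, 426 and 461 CPM and Nrf2 eyes 659, 652, 852, 816 and 731 CPM. The groups lay apart, and mouse 1 again had the smallest difference (0.21 on the log2 scale, against up to 0.94 in mouse 4). Lamp2 rose by 0.60 in log2 units (SE 0.12, adjusted p = 0.0276), and the call was lost without mouse 2, 3, 4 or 5, where values over the alternatives ran from 0.50 to 0.72.

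**Figure D3:**
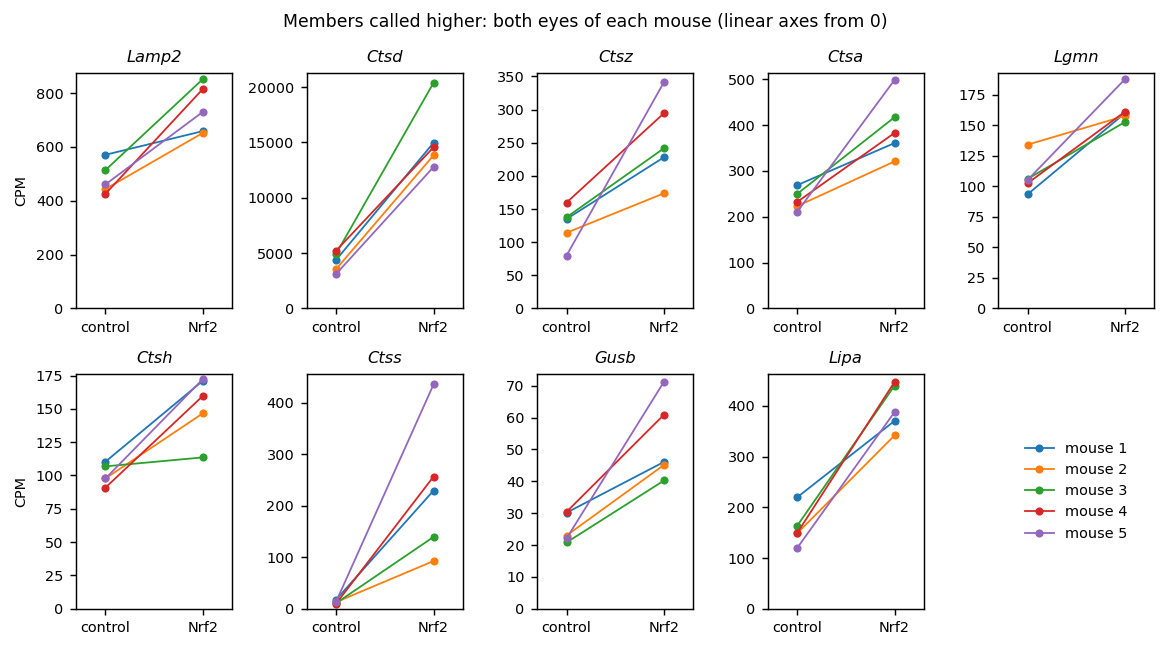
CPM of the 9 members called higher, with a line joining the GFP control eye and the Nrf2 eye of each of 5 mice on linear axes that start at 0. Every line rises, from the near-flat line of Ctsh in mouse 3 (107 to 114) to the Ctss line of mouse 5 (13.5 to 435).

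The immune-leaning members held the largest fold change and also 2 tested genes with means near the control level. Of the 6 genes 3 (50%) were called higher (Ctss, Ctsz and Ctsh), 2 were not called (Ctsc and Ctsk) and Atp6v0d2 was not tested. Their median log2 fold change was 0.57, over 5 tested genes, against 0.16 over the 35 widely expressed members. Of those 35, 6 (17.1%) were called higher and 26 (74.3%) were positive. Over all tested genes 3.60% were called higher and 48.7% were positive. With rod RNA as a covariate, Ctss was the only immune-leaning member called. The median of the widely expressed members was 0.27 without mouse 1 and also without mouse 2. This difference in medians was not tested, and 5 genes are few.

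Ctss, cathepsin S, the cysteine protease with which antigen-presenting cells cut the invariant chain, was low in every control eye at 17.5, 12.9, 10.8, 9.91 and 13.5 CPM. In the Nrf2 eyes of mice 1 to 5 it stood at 229, 92.6, 139, 257 and 435 CPM. The groups were far apart, and the Nrf2 eyes differed among themselves 4.70-fold, more than for any other called member. Ctss rose by 3.98 in log2 units (SE 0.39, adjusted p = 0.000979), or 15.8-fold, and it was called under all 12 alternatives. Without Ctsd, Ctss made 13.95% of the remaining net increase of the members' sum. Its mean went from 12.9 to 231 CPM, a smaller gain than that of Ctsb (1316 to 1866 CPM), which was not called.

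Ctsz, a carboxypeptidase, stood at 135, 114, 138, 160 and 79.9 CPM in control eyes and 228, 174, 242, 295 and 342 CPM in Nrf2 eyes. Mouse 5 held both the lowest control and the highest Nrf2 value, a log2 difference of 2.10 against 0.61 to 0.88 in the other mice. Ctsz rose by 1.01 in log2 units (SE 0.27, adjusted p = 0.0308). It was not called with the rod covariate or without mouse 1, 2, 3 or 4, with log2 fold changes of 0.77 to 1.15 over the alternatives.

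Ctsh, an aminopeptidase, stood at 110, 97.8, 107, 90.9 and 97.8 CPM in control eyes and 171, 147, 114, 160 and 172 CPM in Nrf2 eyes. Mouse 3 hardly changed, with a log2 difference of 0.09. Ctsh rose by 0.57 in log2 units (SE 0.13, adjusted p = 0.0318), and the call was lost with the rod covariate or without mouse 1, 2, 4 or 5, with values of 0.53 to 0.75 over the alternatives.

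The other immune-leaning genes did not separate the groups. Ctsc, which activates the serine proteases of immune cell granules, stood at 331, 213, 294, 232 and 192 CPM in control eyes and 273, 213, 362, 289 and 288 CPM in Nrf2 eyes, a log2 difference of 0.17 (SE 0.15, adjusted p = 0.559). Ctsk, the collagen-cutting cathepsin of osteoclasts, ranged from 7.76 to 17.7 CPM in control eyes and from 6.65 to 19.4 CPM in Nrf2 eyes, a log2 difference of -0.05 (SE 0.46, adjusted p = 0.971). Single mice moved in opposite directions, from -1.40 in mouse 1 to 1.31 in mouse 4. Atp6v0d2, a V0 subunit of osteoclasts and macrophages, had 0 to 5 counts in control eyes and 0 to 41 counts in Nrf2 eyes, the highest in mouse 5.

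Macrophage and microglia marker RNA rose in the same eyes as Ctss, Ctsz and Ctsh. Of 16 marker genes 14 were called higher, with a median log2 fold change of 4.40, and none was at 0 in all libraries. Csf1r (197 CPM in control eyes and 142 in Nrf2 eyes, adjusted p = 0.301) and Ptprc (adjusted p = 0.0553) were the exceptions. Csf1r made up most of the list's sum in control eyes, so the sum is also given without it, a choice made after its values were seen. The summed level of all 16 genes was 167 to 301 CPM in control eyes and 429 to 2189 CPM in Nrf2 eyes, and without Csf1r it was 31.9 to 71.1 CPM and 368 to 1967 CPM. The part of these cells in the members' rise was not tested.

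Among the 5 Nrf2 eyes, the marker list without Csf1r was lowest in mouse 2 (368 CPM), followed by mice 3 (623), 1 (877), 4 (1112) and 5 (1967). Ctss had exactly this order. Of the 9 called members, 6 (Ctss, Ctsz, Ctsh, Ctsa, Lgmn and Gusb) were highest in mouse 5, where the marker list was highest, and 3 of these 6 are in the widely expressed group. Ctsd had its lowest Nrf2 value in that eye and its highest in mouse 3, Lamp2 was also highest in mouse 3, and Lipa was highest in mouse 4. In mouse 2, where the marker list was lowest, 5 of the 9 (Ctss, Ctsz, Ctsa, Lamp2 and Lipa) had their lowest Nrf2 value. The share of all tested genes that were highest or lowest in these eyes was not computed. The counts are thus a description only. The muscle marker list was also highest in the Nrf2 eye of mouse 5, at 549 CPM against 5.28 to 342 in the other Nrf2 eyes and 47.1 to 82.5 in control eyes, and its part was not tested. Over these eyes the macrophage list spanned 5.34-fold, Ctsd 1.60-fold and Lipa 1.31-fold.

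**Figure D4:**
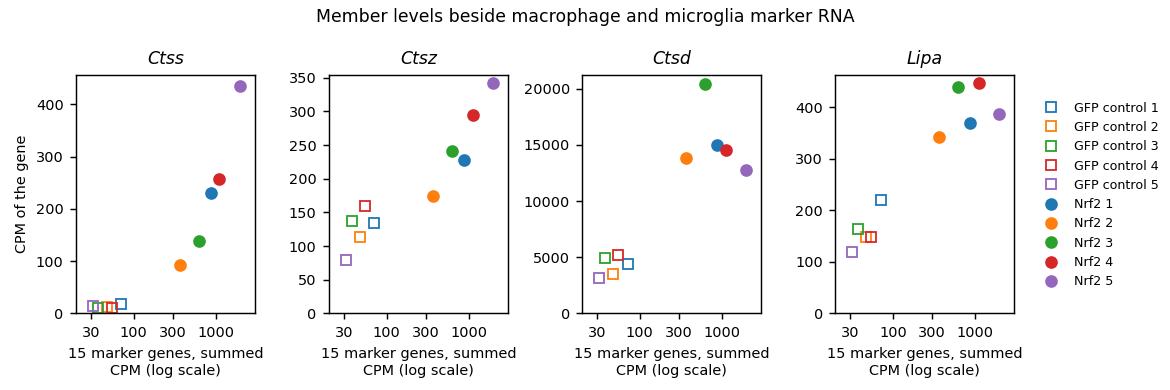
CPM of Ctss, Ctsz, Ctsd and Lipa in each of the 10 eyes (vertical, linear) against the summed CPM of 15 macrophage and microglia markers, Csf1r left out (horizontal, log scale), with open squares for GFP control eyes, filled circles for Nrf2 eyes and a colour for each mouse. Ctss climbs with the markers from 92.6 to 435 CPM across the Nrf2 eyes, and Ctsd is lowest (12780 CPM) in the eye with the most marker RNA.

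Markers of other cells that can express these genes were also read. T cell markers summed to at most 3.05 CPM in control eyes and 14.5 CPM in Nrf2 eyes, and were higher in 5 of 5 mice. B cell markers summed to at most 1.83 CPM in any eye, and osteoclast markers to at most 3.98 CPM, each higher in 3 of 5 mice. The neutrophil list reached 82.4 CPM in control eyes and 194 CPM in Nrf2 eyes, higher in 3 of 5 mice, but nearly all of it was Ltf (193 CPM in the Nrf2 eye of mouse 2), while Ngp was at 0 in every eye. Fibroblast markers ranged from 126 to 677 CPM in control eyes, highest in mouse 1, and from 135 to 775 CPM in Nrf2 eyes, highest in mouse 4. Ctsk peaked in the same eyes, at 17.7 and 19.4 CPM. The part of these cells in the members' levels was not tested.

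Among the widely expressed members that were not called, the nearest to the threshold were membrane proteins. Lamp1, the other abundant glycoprotein of the membrane, stood at 492, 489, 462, 425 and 519 CPM in control eyes and 607, 624, 607, 746 and 729 CPM in Nrf2 eyes, which did not overlap. On the log2 scale the difference was 0.46 (SE 0.09, adjusted p = 0.0532), and 4 of 12 alternatives called it (adjusted p of 0.00140 with DESeq2 and up to 0.219 in the others). Scarb2, the receptor that carries glucocerebrosidase to the lysosome, chosen here after its values were seen, had a log2 fold change of 0.35 with the same direction in 5 of 5 mice (SE 0.02, adjusted p = 0.0544), and it too was called in 4 of 12 alternatives, DESeq2 among them (adjusted p = 0.0233), with values up to 0.275 elsewhere. Mcoln1, a calcium channel of the lysosome, and Cln3 had log2 fold changes of 0.19 and 0.01.

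Ctsb, cathepsin B, was the second most abundant protease, at 1470, 1287, 1359, 1350 and 1112 CPM in control eyes and 1695, 1534, 1906, 2069 and 2127 CPM in Nrf2 eyes. The groups lay apart, and the log2 difference was 0.48 (SE 0.13, adjusted p = 0.0975), with differences of 0.21 to 0.94 across mice, and DESeq2 called it higher (adjusted p = 0.00488), as did none of the other 11 alternatives. It shares 774 exon bases with Fdft1 on the opposite strand. The other proteases not called in the widely expressed group, Ctsl, Tpp1 and Ctsf, had log2 fold changes of 0.16, 0.15 and -0.29.

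The glycosidases all had positive values, and Gusb was the member called at the settings used here. Hexa, a subunit of the enzyme that cuts GM2 ganglioside, had 136 ± 26.4 CPM in control eyes and 212 ± 41.4 CPM in Nrf2 eyes, a log2 difference of 0.62 (SE 0.21, adjusted p = 0.0722), with a difference from 0.09 to 1.29 across mice. Gaa, which digests glycogen, had 351 ± 86.5 and 505 ± 64.1 CPM, a log2 difference of 0.53 (SE 0.19, adjusted p = 0.108), and mouse 1 went the opposite way. Naglu, Neu1, Glb1 and Gla had log2 fold changes of 0.16 to 0.48. With DESeq2, 3 of the 7 glycosidases were called higher (Gusb, Hexa and Gaa), and edgeR called Hexa with no filter on low counts (adjusted p = 0.0470) and Gaa without mouse 1 (adjusted p = 0.0176).

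In lipid breakdown the members went in both directions. Psap, the precursor of the saposins that help lipid-cutting enzymes, was among the most abundant genes and had 4563, 2994, 4235, 4497 and 2791 CPM in control eyes and 3297, 2603, 4136, 3550 and 2947 CPM in Nrf2 eyes. The groups overlapped (log2 fold change -0.21, SE 0.10, adjusted p = 0.537). Smpd1, the acid sphingomyelinase, stood at 389, 423, 457, 512 and 314 CPM in control eyes and 216, 261, 406, 349 and 282 CPM in Nrf2 eyes. It was lower in 5 of 5 mice, with overlapping groups and a log2 difference of -0.50 (SE 0.14, adjusted p = 0.0698). Ppt1 and Asah1 had log2 fold changes of 0.22 each.

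The 12 pump genes together summed to 3599 ± 137 CPM in control eyes and 3437 ± 202 CPM in Nrf2 eyes, higher in 1 of 5 mice. By sector, V1 went from 1538 ± 66.5 to 1424 ± 54.0 CPM and was lower in 5 of 5 mice, V0 from 1199 ± 176 to 1087 ± 129 CPM and was higher in 2 of 5, and the accessory genes from 862 ± 48.3 to 927 ± 51.8 CPM and were higher in 4 of 5. These sums were not tested. Of the 11 tested genes 9 had a log2 fold change within 0.2 of 0. In the V0 sector, the proton-binding ring subunit Atp6v0c stood at 727 ± 156 and 674 ± 119 CPM (log2 fold change -0.11, SE 0.14, adjusted p = 0.768), and reads could be shared with its pseudogene Atp6v0c-ps2, counted at 183 and 166 CPM. Atp6v0a1, the isoform of the large V0 subunit best known from neurons, had 377 ± 47.2 and 319 ± 24.6 CPM, a log2 difference of -0.25 (SE 0.08, adjusted p = 0.275), and Atp6v0d1 had -0.05.

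In the V1 sector, the stalk subunit Atp6v1e1 had the most negative value of the pump, with 434, 453, 503, 467 and 533 CPM in control eyes and 459, 356, 369, 281 and 328 CPM in Nrf2 eyes. It was lower in 4 of 5 mice, the exception being mouse 1 (log2 fold change -0.45, SE 0.15, adjusted p = 0.175). The regulatory subunit Atp6v1b2 had 298 ± 44.8 and 300.2 ± 31.6 CPM, a log2 fold change of 0.00 (SE 0.05). Atp6v1a, Atp6v1c1, Atp6v1d and Atp6v1h lay between -0.09 and 0.05. The accessory proteins Atp6ap1 and Atp6ap2 both had a log2 fold change of 0.09 (SE 0.06 each).

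The wider lysosome pathway was read from lists outside the 41. Of 103 further pathway genes 98 were tested, 11 were called higher (10.7% of those listed, beside the 3.60% of all genes) and 0 were called lower, and their median log2 fold change was -0.01. At an unadjusted p under 0.05 there were 28 higher and 10 lower (9.58% and 9.53% over all genes), and DESeq2 called 19 higher and 3 lower, the latter Naaa, Ostm1 and Wipi1 (5.42% and 3.83% over all genes). By list, 5 of 29 tested hydrolases were called (median 0.31), 1 of 18 membrane and luminal proteins (median -0.04) and 1 of 14 pump subunits (median -0.09). Of the genes for enzyme delivery 3 of 10 were called (median -0.03), of the autophagy genes 1 of 14 (median 0.05) and of the regulators of lysosome gene expression 0 of 13 (median -0.07). Only 1 of the 13 regulators had a positive log2 fold change, beside 48.7% of all tested genes. Their summed CPM was higher in 1 of 5 mice, which was not tested. For the regulators 1 was higher and 2 lower at an unadjusted p under 0.05, a share close to the 19.1% of all tested genes, and DESeq2 called 1 (Tfe3).

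Of the hydrolases of this wider set, Man2b1, an alpha-mannosidase, rose from 93.0 to 199.7 CPM (log2 fold change 1.06, adjusted p = 0.0117) and was highest in the Nrf2 eye of mouse 5, at 274 CPM. Dnase2a, which cuts engulfed DNA, rose from 30.1 to 49.0 CPM (0.70, adjusted p = 0.0122), and Ggh from 66.2 to 95.3 CPM (0.53, adjusted p = 0.0404). Ctsw, a cathepsin of cytotoxic lymphocytes, was called from few counts, at 0.245 and 1.18 CPM (adjusted p = 0.0363).

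Slc11a1, a metal ion transporter of phagocyte lysosomes, had the largest change of the wider set, from 7.61 ± 3.98 to 121 ± 22.6 CPM (log2 fold change 4.10, SE 0.36, adjusted p = 0.000621). Unlike Ctss, it was highest in the Nrf2 eye of mouse 2 (156 CPM), where the macrophage list was lowest. Of the delivery genes, Gga2, an adaptor that loads enzymes at the Golgi, had a log2 fold change of 0.89 (adjusted p = 0.0104). Nagpa, which uncovers the mannose 6-phosphate tag, had 0.67 (adjusted p = 0.0300), and Igf2r, the receptor of that tag, had 0.57 (adjusted p = 0.0302). Sqstm1, the autophagy receptor p62 and a known NRF2 target, rose from 487 ± 65.2 to 866 ± 91.9 CPM (0.82, adjusted p = 0.00836). Tcirg1, the pump subunit a3 of osteoclasts and immune cells, named after its values were seen, rose from 18.1 to 31.8 CPM (0.80, adjusted p = 0.0425).

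Of the 11 called genes of the wider set, Slc11a1 and Dnase2a kept their call under all 12 alternatives among those named here. Man2b1, Gga2 and Sqstm1 lost it with rod RNA as a covariate. Nagpa and Tcirg1 were called in 7 of 12 alternatives, Igf2r in 6 and Ggh in 5, and Ctsw in 5 of 11, and none of these was called with the rod covariate or when any of 4 of the 5 mice was left out.

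Of the CLEAR-binding transcription factors and their relatives, none passed the test at the settings used here. Tfeb stood at 40.6 ± 1.11 and 40.2 ± 10.9 CPM (log2 fold change -0.07, adjusted p = 0.858). Tfe3 stood at 40.3 ± 1.24 and 54.6 ± 9.34 CPM, without overlap between the groups (0.41, adjusted p = 0.0678), and was called by DESeq2 (adjusted p = 0.0363) and by edgeR without the mouse block (adjusted p = 0.0418), though in none of the other 10 alternatives. Mitf had a log2 fold change of -0.26 (adjusted p = 0.317), and Tfec was low, at 3.12 and 3.94 CPM (-0.07, adjusted p = 0.984). These values are RNA levels and do not show where the proteins were in the cell.

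**Figure D5:**
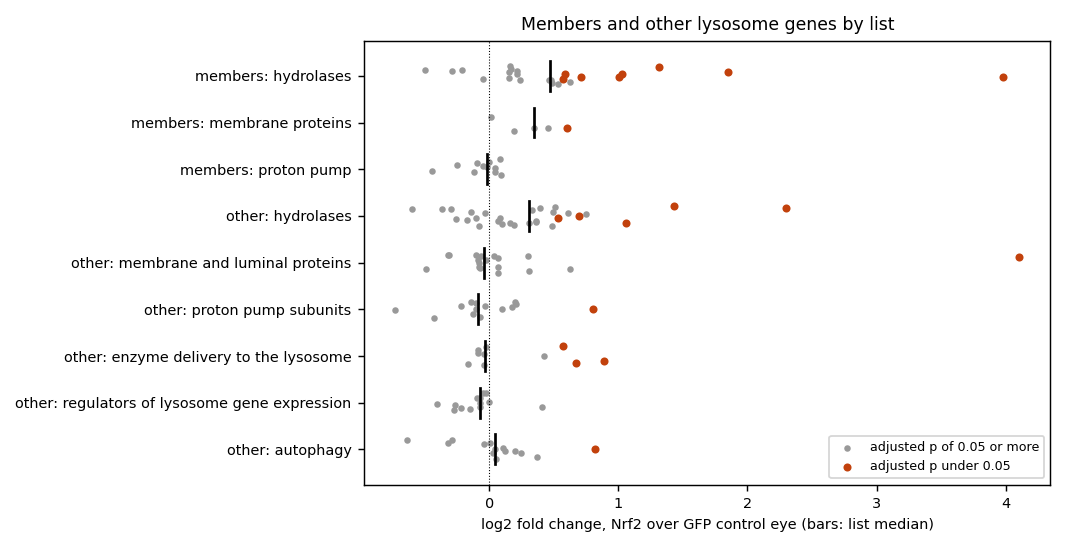
Log2 fold change of each tested gene, by list, for the 41 members and the 103 further lysosome genes, with orange for an adjusted p under 0.05 and a black bar at the median of each list. Called genes lie mostly among hydrolases (8 of 24 members and 5 of 29 others), and the medians of both pump lists are below 0 (-0.02 and -0.09).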

How the data were processed

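RNA of 10 eyecup RPE samples (5 mice, 2 eyes each) was analysed. Per the labels and the study's methods, polyA RNA was amplified by a kit for small inputs, and reads were aligned with STAR to mm10 and counted with featureCounts, with Salmon (0.8.2 in the submitters' processing notes) run in parallel. FastQC is also named there. Which counter gave the deposited table, its strand setting and its filters are not given in the sources used here. The authors deposited raw, whole-number counts per Ensembl gene, and 0 columns belonged to other samples. Symbols, positions and exon lengths came from GENCODE M21, and promoter windows from RefSeq.

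The test was that of edgeR 4.0.16, run in R 4.3.3 (filterByExpr, TMM, quasi-likelihood F test, mouse as block, Benjamini-Hochberg, threshold 0.05). Log2 fold changes are fitted values. The SE is taken over 5 differences between the eyes of a mouse, in log2 CPM with a prior count of 2. Scripts were tested on simulated data. Totals were 12298404 to 27310638 counts, and every pair of libraries differed by more than sampling noise (lowest chi-square per degree of freedom 34.5). Intervals and floors (3 counts) cover counting error only.

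Eyes were paired by the animal number in the labels. After subtraction of each group's mean log2 CPM, eyes correlated across genes at r = 0.185 to 0.706 within mice, against a median of -0.0816 (-0.422 to 0.281) between mice. Alternatives were DESeq2 1.42.0, no block, RLE factors, library totals, no filter, a mean of at least 50 counts, rod RNA as a covariate, leaving out each mouse, and moving Ctsk and Ctsz to the widely expressed group. That move took the called Ctsz and the uncalled Ctsk along, and left Ctss and Ctsh as the called immune-leaning members.

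Members and lists were chosen with earlier results of these data known, so no test over a list was made. Named with values were the called members, the immune-leaning members, the 2 most abundant members of each role, up to 10 called genes of the wider set by smallest p, Tfeb, Tfe3, Tfec, Mitf and Nfe2l2. A gene that met this rule is not reported here. No protein sequences were used.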

Additional observations from a re-analysis of the deposited data

Results flagged for a closer look

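In each group of 5 eyes, the highest or lowest log2 CPM of a member was set against the other 4 by Dixon's test. This picked out 4 of 82 groups, where chance alone gives about 4.1. In the Nrf2 eye of mouse 5 Lgmn was far above its group, at 7.56, where the other Nrf2 eyes had 7.26 to 7.34. Atp6v0a1 was far below the rest in the same eye, at 8.11 against 8.32 to 8.40. Mcoln1 was low in the Nrf2 eye of mouse 1, at 5.84 against 6.05 to 6.11. Ctsf was low in the GFP control eye of mouse 5, at 6.96 against 7.53 to 7.68.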

How the results depend on the processing

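Ctsd, Ctss, Lipa and Gusb were called under all 12 alternative fits. Ctsa, Lamp2, Ctsz, Lgmn and Ctsh lost their call with rod RNA as a covariate and without single mice (named with each gene), and the cause was not tested. Of 480 values of tested members under alternatives, 462 kept their sign, and the exceptions belong to 8 genes that were never called. The eyes are paired by mouse: without the block edgeR called 10 members higher (Lamp1 in addition) and 755 genes in all, against 9 and 1036 with it. DESeq2 called 1812 genes, 14 members higher and 1 lower (11 and 1 of the widely expressed), and 19 of the wider set higher and 3 lower. With rod RNA as a covariate 421 genes were called, 4 members higher (3 widely expressed and 1 immune-leaning) and 3 genes of the wider set. Leaving out each mouse in turn gave 584 (without mouse 2) to 857 genes, and 4 (without mouse 4) to 7 members higher. Of these, 3 to 6 were widely expressed and 1 to 2 immune-leaning, and the wider set had 6 to 10 higher and 0 to 1 lower. The median over all genes moved by less than 0.1 under every scaling.

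Without DESeq2 or a left-out mouse, members called higher numbered 9 to 11 in fits without the covariate, with all 9 shared. Low counts limit Atp6v0d2 and Ctsw. Exon overlap on the opposite strand, with the strand setting unknown, limits Ctsl (1742 of 6489 bases), Ctsb, Ctsa, Hexa (255 of 1996) and Lamp1 (249 of 2675) among others. Overlap on the same strand with a counted gene limits Glb1. Ctsd and Ctsl also overlap genes on the same strand, but those genes are not among the ones counted.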
